A study of Mus musculus with 12 samples.

Results

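The 9 genes described here are characteristic of the thick ascending limb of the loop of Henle: Slc12a1, Kcnj1, Bsnd, Cldn10, Cldn16, Cldn19, Umod, Egf and Irx1. They were taken by gene symbol from the 54532 genes listed in each of 2 expression tables of mouse kidney, whose positions are on GRCm38. All 9 were found in both tables and averaged 0.5 FPKM or more over the 6 libraries of each table. FPKM counts sequenced fragments per kilobase of a gene after scaling for depth. The members were selected on the FPKM differences between knockout and wild-type libraries, which were already known. Their values and counts in knockout and wild-type kidneys are therefore a description, and no test of them is read.

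Kidney RNA came from C57BL/6 mice in 4 groups, with 3 libraries per group. The first table held β-catenin-/- kidneys and their WT controls, all after UUO (unilateral ureteral obstruction, in which the left ureter is ligated). The second held CD44-/- kidneys and their WT controls, all after UIRI (unilateral ischemia-reperfusion injury, in which the left renal pedicle is clipped for a time and the right kidney is taken out later). β-catenin was deleted with floxed alleles and a Cre driven by the Ksp-cadherin (Cdh16) promoter, which the study describes as active in the loop of Henle, distal tubules and collecting duct. It gives the loss of β-catenin in proximal tubules as the larger part of them in its results and as partial in its discussion. The study bought young adult male mice and gives no separate age for the knockouts. How the CD44-/- mice were made is not given in the sources used here. Every kidney was injured, and uninjured kidneys were not analysed here. Since gene and injury differed together between the tables, the effect of a gene and that of an injury cannot be told apart when the tables are set side by side.

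The thick ascending limb takes up sodium, potassium and chloride from the tubule fluid without water, and so makes the medulla salty and the urine dilute. Potassium returns to the lumen through a channel, chloride leaves towards the blood, and the resulting voltage drives calcium, magnesium and sodium between the cells through claudin pores. The segment also makes uromodulin, the most abundant protein of normal urine. In a whole kidney, fewer cells of a type and less RNA per cell cannot be told apart, and this holds for every value below.

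β-catenin acts in the nucleus with TCF/LEF proteins, and the promoters of the members were therefore searched for 2 forms of their motif. They were also searched for the CCAAT box, the GC box and the TATA box, which are general elements of promoters. The CCAAT and GC boxes were added after the windows were seen. RefSeq (GRCm38.p6) gave the 250 bases before each start for 7 of the 9 genes, in 10 windows, since 3 genes had a pair of starts. Bsnd and Irx1 were not matched. The 4 windows shown belong to the ion transporter with the largest difference after UUO, to the most abundant member, and to the 2 starts of Cldn10, whose reads are summed in 1 value per gene. RefSeq starts are not the gene limits given below. The windows of Slc12a1 and Umod overlap the gene as counted in part, and the second window of Cldn10 lies inside it. Capitals mark CCAAT and GC boxes on either strand. The windows lie at chr2:125152350-125152599 on the plus strand for Slc12a1, chr7:119479263-119479512 on the minus strand for Umod, and chr14:118787621-118787870 and chr14:118854700-118854949 on the plus strand for Cldn10, and are written 5′ to 3′ on the strand of the gene.
Slc12a1: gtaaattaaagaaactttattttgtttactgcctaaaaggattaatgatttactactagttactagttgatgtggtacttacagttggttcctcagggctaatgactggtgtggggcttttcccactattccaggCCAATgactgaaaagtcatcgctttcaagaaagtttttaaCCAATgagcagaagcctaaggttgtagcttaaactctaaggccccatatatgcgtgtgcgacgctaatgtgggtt
Umod: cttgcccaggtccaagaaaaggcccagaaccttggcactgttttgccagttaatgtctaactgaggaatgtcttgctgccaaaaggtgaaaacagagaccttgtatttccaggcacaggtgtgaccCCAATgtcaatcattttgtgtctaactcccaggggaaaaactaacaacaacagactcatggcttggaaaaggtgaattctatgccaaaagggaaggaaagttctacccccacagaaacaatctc
Cldn10, start 1: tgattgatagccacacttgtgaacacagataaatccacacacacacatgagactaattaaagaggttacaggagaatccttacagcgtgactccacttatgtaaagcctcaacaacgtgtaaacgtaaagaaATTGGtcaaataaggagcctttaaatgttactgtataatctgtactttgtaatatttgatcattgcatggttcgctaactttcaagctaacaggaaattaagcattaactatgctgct
Cldn10, start 2: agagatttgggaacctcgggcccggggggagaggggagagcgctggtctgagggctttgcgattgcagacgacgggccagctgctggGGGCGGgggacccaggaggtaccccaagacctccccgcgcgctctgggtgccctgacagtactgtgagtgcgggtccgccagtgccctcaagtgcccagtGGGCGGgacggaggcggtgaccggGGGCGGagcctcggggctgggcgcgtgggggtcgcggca

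The CCAAT box (CCAAT, both strands) was in 4 of the 10 windows, against 33.8% of all 32851 RefSeq windows of the same length. Slc12a1 had 2, Umod had 1 that began at -124 from the start, and the first window of Cldn10 had 1 at -118 on the other strand. The GC box (GGGCGG, both strands) was in 3 of the 10 windows, against 32.7% of all. The second window of Cldn10 held 3, and the others were in the windows of Cldn19, which overlap each other. The windows of Cldn10 thus shared neither box. The TCF/LEF motif was searched for as CTTTGAA or CTTTGAT on either strand, and these were in 0 of the 10 windows, against 7.48% of all windows. Other forms, such as CTTTGTA, which stands in the first window of Cldn10, were not searched for. The 0 therefore does not cover them. TATAAA, on either strand, was also in 0 of the 10 windows, against 12.4% of all. These are matches of letters in short windows and say nothing of binding.

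The targeted genes were read first. Ctnnb1, which encodes β-catenin, had 84.7, 71.4 and 71.7 FPKM in β-catenin-/- kidneys and 91.2, 86.7 and 98.5 FPKM in WT kidneys after UUO. Every β-catenin-/- library lay below every WT library, as was the case for 15.9% of all genes tested. The difference did not pass the test (log2 fold change -0.28 ± 0.13 SE, adjusted p = 0.189, limma). Ctnnb1 reads were summed over all exons and all cell types, so the deleted exons were not measured on their own. Cd44 had 19.0, 11.97 and 13.9 FPKM in the kidneys labelled CD44-/- and 19.9, 16.3 and 17.8 FPKM in WT kidneys after UIRI, with overlapping groups (log2 fold change -0.27 ± 0.17 SE, adjusted p = 0.339). The Cd44 value per gene therefore does not check that label, and what part of Cd44 was removed is not given in the sources used here. Cdh16, whose promoter drives the Cre, had 332, 288 and 310.2 FPKM in β-catenin-/- kidneys and 273, 255 and 276 FPKM in WT kidneys (log2 fold change of 0.21, adjusted p = 0.342). Reads assigned to genes ranged from 15940405 to 20737443 per library.

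After UUO, all 9 members had a positive log2 fold change in β-catenin-/- over WT kidneys, and in 5 of them (Slc12a1, Kcnj1, Cldn10, Egf and Irx1) every β-catenin-/- library lay above every WT library. The median log2 fold change of the members was 0.70, against 0.01 over the 16166 genes tested. Of those genes, 19.6% had every β-catenin-/- library above every WT library, and 6.21% were called higher at an adjusted p under 0.05 (limma on log2(FPKM + 1)). The call was met by 3 members, Slc12a1, Cldn10 and Irx1. Without adjustment, 7 members passed 0.05, as did 29.9% of all genes. In 0 members was every β-catenin-/- library below every WT library, against 15.9% of all genes. As the members were chosen with this contrast known, these counts describe them and nothing is read from them. Rescaling FPKM to an equal total in every library put the median of all genes at -0.16 and that of the members at 0.48, turned Bsnd alone of the 9 negative, and the calls at 570 higher and 1178 lower, against 1004 and 705 as deposited.

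After UIRI, 3 members had a positive and 6 a negative log2 fold change in CD44-/- over WT kidneys, with a median of -0.26, against 0.00 over the 16113 genes tested. The groups overlapped for 8 of the 9 members. Cldn16 was the exception, with every CD44-/- library below every WT library, as was the case for 14.5% of all genes tested. The limma call was met by 0 members, and 1 member, Cldn16, passed 0.05 without adjustment, as did 27.1% of all genes. Over all genes, 4.02% were called higher and 2.19% lower, and 19.1% had every CD44-/- library above every WT library. limma's voom on recovered reads also called 0 members. With FPKM rescaled to an equal total, the median of all genes was -0.10 and 215 genes were called higher and 470 lower, against 648 and 353 as deposited.

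**Figure D1:**
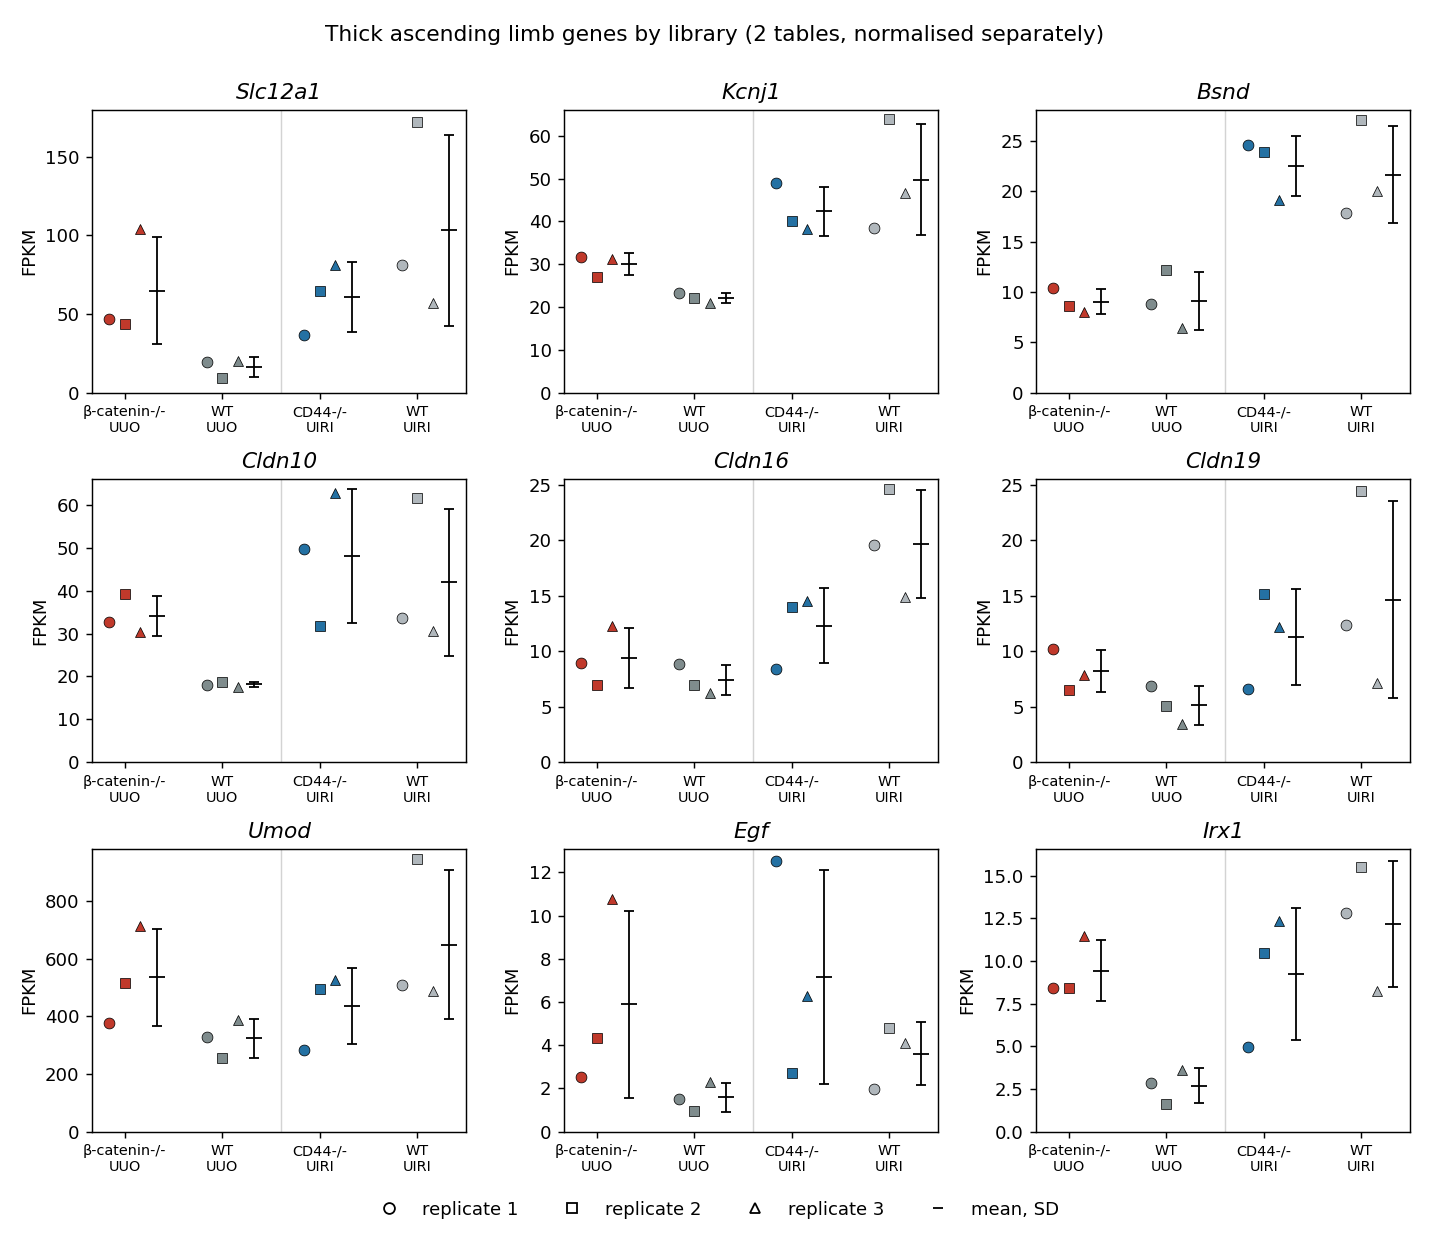
FPKM of each of the 9 genes (y axis, linear, starting at 0) in every library of the 4 groups (x axis), with symbols for the replicate numbers and a bar for the mean and SD of 3 libraries. The β-catenin-/- libraries lie above all WT libraries after UUO for Slc12a1, Kcnj1, Cldn10, Egf and Irx1, and the second WT library after UIRI is the highest of its group in all 9 panels. The grey line parts tables that were normalised separately.

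Slc12a1 (ENSMUSG00000027202, chromosome 2 from 125152505 to 125230002) encodes NKCC2, the sodium-potassium-chloride cotransporter of the apical membrane and the target of loop diuretics. It had 46.6, 43.7 and 104 FPKM in β-catenin-/- kidneys and 19.6, 9.14 and 19.9 FPKM in WT kidneys after UUO. All 3 β-catenin-/- libraries were above all WT libraries, and the third was more than double either of the other two. The means were 64.8 ± 34.1 FPKM in β-catenin-/- kidneys and 16.2 ± 6.13 FPKM in WT kidneys (SD, n = 3 each), and the log2 fold change of 1.89 (standard error 0.40) was the largest of the 9. Without the third β-catenin-/- library it was 1.5. After UIRI, Slc12a1 had 36.7, 64.8 and 80.9 FPKM in CD44-/- kidneys and 80.9, 172 and 56.8 FPKM in WT kidneys. The groups overlapped, the second WT library stood far above the rest, and the log2 fold change was -0.67 (standard error 0.45). Without that WT library it was -0.23. Slc12a1 was counted from 987 to 18219 reads per library.

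Kcnj1 (ENSMUSG00000041248, chromosome 9 from 32372493 to 32399197) encodes ROMK, the channel that returns potassium to the lumen so that NKCC2 can keep running. It had 31.8, 27.0 and 31.3 FPKM in β-catenin-/- kidneys and 23.3, 22.1 and 21.0 FPKM in WT kidneys after UUO. Both groups were tight and did not overlap, with a log2 fold change of 0.42 (standard error 0.11). After UIRI, Kcnj1 had 48.9, 40.0 and 38.2 FPKM in CD44-/- kidneys and 38.5, 64.0 and 46.6 FPKM in WT kidneys. The CD44-/- values fell within the range of the WT values but for 1 library just below it, and the log2 fold change was -0.20 (standard error 0.19). Without the second WT library it was -0.010.

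Bsnd (ENSMUSG00000025418, chromosome 4 from 106483456 to 106492283) encodes barttin, the subunit that the basolateral chloride channels need to reach the membrane. It had 10.4, 8.60 and 8.05 FPKM in β-catenin-/- kidneys and 8.75, 12.1 and 6.36 FPKM in WT kidneys after UUO. The WT range enclosed all β-catenin-/- values, and the log2 fold change was 0.02 (standard error 0.21). After UIRI, Bsnd had 24.6, 23.9 and 19.1 FPKM in CD44-/- kidneys and 17.8, 27.1 and 19.99 FPKM in WT kidneys. Here too the WT range enclosed the other group, and the log2 fold change was 0.07 (standard error 0.17). Of the 3 transport members, Bsnd was thus the one whose groups overlapped in both tables, and its log2 fold change turned negative with FPKM rescaled to an equal total, to -0.17 after UUO and -0.06 after UIRI.

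Among the claudins, which form the pores between the cells, Cldn10 makes the sodium-selective one of this segment. Cldn10 (ENSMUSG00000022132, chromosome 14 from 118787908 to 118875489) had 32.8, 39.3 and 30.3 FPKM in β-catenin-/- kidneys and 18.0, 18.7 and 17.6 FPKM in WT kidneys after UUO. All β-catenin-/- values were well above the narrow WT range, and the log2 fold change was 0.87 (standard error 0.12). After UIRI, Cldn10 had 49.8, 31.7 and 62.9 FPKM in CD44-/- kidneys and 33.6, 61.6 and 30.7 FPKM in WT kidneys. Both groups spread over the same range, and the log2 fold change was 0.21 (standard error 0.33). It was -0.0067 without the third CD44-/- library and 0.52 without the second WT library. The value of Cldn10 sums the transcripts of both starts printed above, so a change at 1 start cannot be told from a change at the other. Whether its reads came from this segment was not tested.

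Cldn16 and Cldn19 together form the pore for magnesium and calcium, and mutations of either cause an inherited loss of both ions in humans. Cldn16 (ENSMUSG00000038148, chromosome 16 from 26463135 to 26482765) had 8.92, 6.97 and 12.3 FPKM in β-catenin-/- kidneys and 8.87, 6.96 and 6.27 FPKM in WT kidneys after UUO. The third β-catenin-/- library was the only one clearly above the WT range, and the log2 fold change was 0.29 (standard error 0.21). Without that library it was 0.099. After UIRI, Cldn16 had 8.42, 14.0 and 14.5 FPKM in CD44-/- kidneys and 19.5, 24.6 and 14.9 FPKM in WT kidneys. The groups did not overlap, though the gap between the highest CD44-/- and the lowest WT library was small, and the log2 fold change was -0.64 (standard error 0.24). Without the first CD44-/- library it was -0.41.

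Cldn19 (ENSMUSG00000066058, chromosome 4 from 119255414 to 119262438) had 10.2, 6.49 and 7.84 FPKM in β-catenin-/- kidneys and 6.87, 5.06 and 3.40 FPKM in WT kidneys after UUO. The groups overlapped by 1 library, and the log2 fold change was 0.61 (standard error 0.24). After UIRI, Cldn19 had 6.56, 15.1 and 12.2 FPKM in CD44-/- kidneys and 12.3, 24.5 and 7.15 FPKM in WT kidneys. The WT libraries alone spread more than 3-fold, and the log2 fold change was -0.26 (standard error 0.45). Without the second WT library it was 0.17. Of the antisense genes that overlap members, Gm12927 over Cldn19 had the most reads, at most 22 in a library, and since the kit does not mark strand those reads cannot be told apart.

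Umod (ENSMUSG00000030963, chromosome 7 from 119462711 to 119479282) encodes uromodulin, which is shed from the apical membrane into urine. It was the most abundant member in every library, with 59.6% to 82.8% of the summed FPKM of the 9 genes. Umod had 377, 514 and 712 FPKM in β-catenin-/- kidneys and 326, 254 and 388 FPKM in WT kidneys after UUO. The lowest β-catenin-/- library lay within the WT range, and the log2 fold change was 0.70 (standard error 0.27). After UIRI, Umod had 284, 495 and 526 FPKM in CD44-/- kidneys and 509, 946 and 488 FPKM in WT kidneys. The lowest value was a CD44-/- and the highest a WT library, the others lay between 488 and 526 FPKM, and the log2 fold change was -0.55 (standard error 0.34). Without the second WT library it was -0.25.

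Egf (ENSMUSG00000028017, chromosome 3 from 129677565 to 129755316) encodes pro-epidermal growth factor, which the kidney makes in the thick ascending limb and the distal convoluted tubule. It was the lowest member in every group mean, with 2.54, 4.35 and 10.8 FPKM in β-catenin-/- kidneys and 1.49, 0.95 and 2.31 FPKM in WT kidneys after UUO. The groups did not overlap, the third β-catenin-/- library was again the highest, and the log2 fold change was 1.26 (standard error 0.42). Without that library it was 0.79. After UIRI, Egf had 12.5, 2.72 and 6.27 FPKM in CD44-/- kidneys and 1.95, 4.79 and 4.10 FPKM in WT kidneys. The CD44-/- libraries spread on both sides of the WT mean, and the log2 fold change of 0.69 (standard error 0.48) became 0.23 without the first of them.

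Irx1 (ENSMUSG00000060969, chromosome 13 from 71957921 to 71963723) encodes an Iroquois transcription factor of the intermediate nephron segment, from which the loop of Henle forms. It had 8.41, 8.40 and 11.5 FPKM in β-catenin-/- kidneys and 2.83, 1.63 and 3.64 FPKM in WT kidneys after UUO. The lowest β-catenin-/- library was more than double the highest WT library, and the log2 fold change was 1.52 (standard error 0.23). After UIRI, Irx1 had 4.94, 10.5 and 12.3 FPKM in CD44-/- kidneys and 12.8, 15.5 and 8.22 FPKM in WT kidneys. The groups overlapped, with a log2 fold change of -0.40 (standard error 0.34). Without the first CD44-/- library, the lowest of the 6, it was -0.052. Its 80 reads in the second WT library after UUO were the fewest of any member.

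Ordered by mean FPKM within a group, Slc12a1 was the second of the 9 members in β-catenin-/- kidneys and the fourth in WT kidneys after UUO. In β-catenin-/- kidneys the order was Umod, Slc12a1, Cldn10, Kcnj1, Irx1, Cldn16, Bsnd, Cldn19 and Egf. The libraries of neighbours in this order overlapped from Irx1 down to Egf, and also between Cldn10 and Kcnj1. In WT kidneys after UUO the order was Umod, Kcnj1, Cldn10, Slc12a1, Bsnd, Cldn16, Cldn19, Irx1 and Egf. There all neighbours from Cldn10 down overlapped, so that only the places of Umod and Kcnj1 were set apart from the next. In both groups after UIRI, Umod and Slc12a1 came first and second and Bsnd to Egf made up the last 5 in the same order, with Cldn10 above Kcnj1 in CD44-/- kidneys and below it in WT kidneys, where these 2 genes overlapped in either group.

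**Figure D2:**
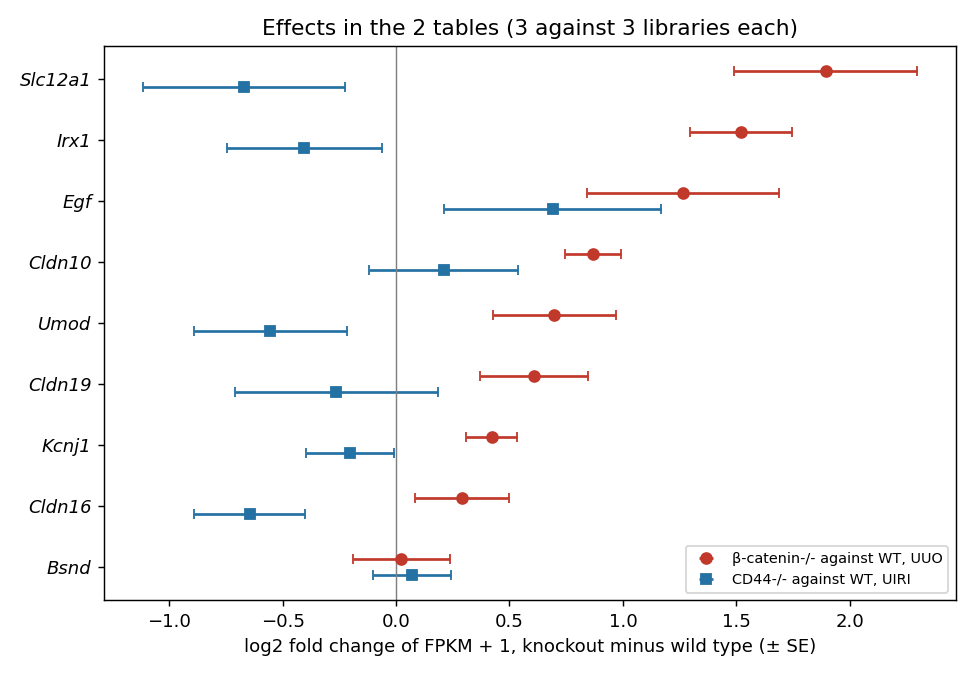
Log2 fold change of FPKM + 1, knockout minus wild type (x axis, 0 at the vertical line), for the 9 genes ordered by their value after UUO (y axis), as circles for β-catenin-/- against WT after UUO and squares for CD44-/- against WT after UIRI, with bars of ± 1 standard error from limma over 3 against 3 libraries. The circles run from 0.02 for Bsnd to 1.89 for Slc12a1, and 6 of the 9 squares lie below 0.

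The effects of the knockouts were set side by side by subtracting the CD44-/- effect after UIRI from the β-catenin-/- effect after UUO, each formed within its own table. The 2 effects shared no library. The difference was positive for 8 of 9 members and had a median of 0.87 on the log2 scale, against -0.01 over the 16193 genes tested. It was 2.56 (standard error 0.67) for Slc12a1 and 1.92 (standard error 0.45) for Irx1, and between 0.57 for Egf and 1.25 for Umod for the other positive members. The value of Egf rested on single libraries, and was 0.095 without the third β-catenin-/- library and 1.03 without the first CD44-/- library. Without the second WT library after UIRI, Cldn10 had 0.35 and Cldn19 had 0.44, against 0.66 and 0.87 with all libraries. Bsnd had -0.05 (standard error 0.30). The limma call was met by 0 members and 0 of 23 other thick ascending limb genes, and by 1 gene in all, the predicted gene Gm8730, 0.00618% of those tested. Without adjustment, 5 of the 9 members and 6 of the 23 others passed 0.05, beside 13.6% of all genes. The members were chosen with this difference known, so their values and counts are a description and nothing is read from them. voom on recovered reads called 0 members and 0 of the 23 as well. The median over the members was 0.44 without the second WT library after UIRI and 1.11 without the third WT library.

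A list of 23 other genes of the segment was then read, among them the sodium pump, the kinases and receptors that set transport, and further transcription factors. The list was chosen with earlier results of these data known, so its counts are not an independent check on the members. After UUO, 6 of the 23 were called higher in β-catenin-/- kidneys, beside 6.21% of all genes, and 0 were called lower, beside 4.36%. Without adjustment, 13 passed 0.05 in the higher and 1 in the lower direction, beside 29.9% of all genes in either direction. Without the filter on low values 2 of the 23 were called higher, and with FPKM rescaled to an equal total in every library 3 were. The median log2 fold change was 0.36, and 14 of the 23 had every β-catenin-/- library above every WT library, beside 19.6% of all genes. Tmem52b was the 1 gene with every β-catenin-/- library below, beside 15.9% of all genes (log2 fold change of -0.40, adjusted p = 0.127, limma). Ppp1r1a, Hpn, Fxyd2, Kcnj16 and Pou3f3 were among the 6 called. Over the 12 libraries, their deviations from group means had a Pearson r of 0.72, -0.04, 0.10, 0.001 and 0.59, in that order, with the mean deviation of the members. From which segments the reads of the 23 genes came was not measured.

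Ppp1r1a encodes an inhibitor of protein phosphatase 1. It rose to 33.8, 38.9 and 49.2 FPKM in β-catenin-/- kidneys, against 14.8, 9.20 and 11.5 FPKM in WT kidneys after UUO (log2 fold change 1.71 ± 0.20 SE, adjusted p = 0.009, limma). Hpn encodes hepsin, the protease that releases uromodulin from the membrane, and is also made in the proximal tubule. It rose to 95.2, 104 and 64.5 FPKM in β-catenin-/- kidneys, against 37.7, 34.8 and 38.0 FPKM in WT kidneys (log2 fold change 1.205 ± 0.19 SE, adjusted p = 0.015). Without the second WT library the adjusted p was 0.0657. Hpn was higher in every β-catenin-/- than in every WT library. For its substrate Umod the groups overlapped, with a log2 fold change of 0.70 (standard error 0.27). From which cells the Hpn reads came was not tested.

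Fxyd2 encodes the γ subunit of the sodium pump. It rose to 321, 335 and 237 FPKM in β-catenin-/- kidneys, against 164, 145 and 122 FPKM in WT kidneys after UUO (log2 fold change 1.04 ± 0.19 SE, adjusted p = 0.020, limma). The call was lost without any 1 of 4 libraries, with an adjusted p of 0.0656 and 0.0621 without the first or second β-catenin-/- library, and of 0.0741 and 0.0552 without the second or the third WT library. Kcnj16, a basolateral potassium channel subunit, rose to 141, 150 and 164 FPKM in β-catenin-/- kidneys, against 100, 91.1 and 109 FPKM in WT kidneys (log2 fold change 0.60 ± 0.13 SE, adjusted p = 0.033). Its call was lost without the first or second β-catenin-/- library (adjusted p of 0.0729 and 0.0892) and without the first, second or the third WT library (0.09565, 0.113 and 0.0611).

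Pou3f3, a transcription factor of the loop of Henle, was named after its values were seen. It had 14.5, 14.8 and 14.6 FPKM in β-catenin-/- kidneys and 10.9, 9.48 and 10.9 FPKM in WT kidneys after UUO (log2 fold change of 0.45, adjusted p = 0.034, limma). The call was kept without the third β-catenin-/- library and lost without any other 1, with adjusted p from 0.0707 to 0.111. The second WT library also weighed on the list as a whole, since 1 of the 23 genes, Ppp1r1a, was called without it.

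After UIRI, 2 of the 23 were called higher in CD44-/- kidneys, beside 4.02% of all genes, and 0 were called lower, beside 2.19%. Without adjustment, 6 passed 0.05 in the higher and 0 in the lower direction, beside 27.1% of all genes in either direction. voom on recovered reads called 3 higher and 0 lower, and with no filter or with FPKM rescaled to an equal total 0 were called higher. The median log2 fold change was 0.01, and 6 of the 23 had every CD44-/- library above every WT library, beside 19.1% of all genes. Hpn rose to 77.0, 59.5 and 94.7 FPKM in CD44-/- kidneys, against 42.2, 44.1 and 38.7 FPKM in WT kidneys (log2 fold change 0.85 ± 0.17 SE, adjusted p = 0.040, limma). Atp1b1, the β subunit of the sodium pump, rose to 543, 568 and 541 FPKM in CD44-/- kidneys, against 378, 381 and 384 FPKM in WT kidneys (log2 fold change 0.53 ± 0.10 SE, adjusted p = 0.039). The calls of Hpn and Atp1b1 were lost without any 1 of 5 libraries. Without the first or the third CD44-/- library the adjusted p of Hpn was 0.0947 and 0.124, and that of Atp1b1 0.0884 and 0.146. Without the first, second or the third WT library it was 0.109, 0.101 and 0.131 for Hpn, and 0.13, 0.0955 and 0.125 for Atp1b1. In these 5 fits, 0 to 5 genes of the whole table were called higher, against 648 with all 6 libraries and 1417 without the second CD44-/- library.

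These named genes were set side by side in both tables. Ppp1r1a, called higher after UUO, had 62.7, 29.8 and 42.5 FPKM in CD44-/- kidneys and 36.3, 115 and 41.6 FPKM in WT kidneys after UIRI, with overlapping groups (log2 fold change of -0.37, adjusted p = 0.649, limma). Without the second WT library after UIRI the direction turned, to 0.14. The difference between its effects was 2.08 (standard error 0.56, adjusted p = 0.198), and 1.56 without that library. Hpn was higher in both tables and its effects differed by 0.36 (standard error 0.27, adjusted p = 0.588). The effects on Fxyd2 differed by 0.96 (standard error 0.28, adjusted p = 0.210) and those on Kcnj16 by 0.26 (standard error 0.15, adjusted p = 0.484). Pou3f3 had a difference of 0.46 (standard error 0.27, adjusted p = 0.476). Atp1b1, called higher after UIRI, had a negative difference of -0.17 (standard error 0.15, adjusted p = 0.670). None of these differences passed the test.

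Marker genes of other cell types also differed in these libraries, and are given beside the members. Their lists were also chosen with earlier results of these data known. Of 11 proximal tubule genes, 7 were called higher after UUO in β-catenin-/- kidneys, with a median log2 fold change of 1.00, and 5 (Lrp2, Cubn, Slc34a1, Slc22a6 and Slc13a3) were called higher after UIRI in CD44-/- kidneys, with a median of 1.26. Over all genes, 6.21% were called higher after UUO and 4.02% after UIRI. With 1 library left out, 0 to 1417 genes were called higher and 1 to 763 lower after UIRI. With the replicate number as a block, 0 genes were called in either direction after UIRI. The marker calls after UIRI given here and below were thus lost in that fit. The summed level of the proximal tubule genes ranged from 4731 to 8673 FPKM in β-catenin-/- kidneys and from 2975 to 6054 FPKM in WT kidneys after UUO. It ranged from 5054 to 15074 FPKM in CD44-/- kidneys and from 3007 to 4219 FPKM in WT kidneys after UIRI. Thus the proximal tubule list had a positive median in both tables, whereas that of the members was positive in the UUO table and negative in the UIRI table.

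Of 9 macrophage genes, 7 were called lower after UUO in β-catenin-/- kidneys (median log2 fold change of -1.03) and 5 (Adgre1, C1qa, C1qb, C1qc and Itgam) after UIRI in CD44-/- kidneys (median of -0.82). Beside them, 4.36% of all genes were called lower after UUO and 2.19% after UIRI. The summed level of the macrophage genes ranged from 596 to 685 FPKM in β-catenin-/- kidneys and from 1125 to 1377 FPKM in WT kidneys, and from 803 to 1409 FPKM in CD44-/- kidneys and from 2094 to 2157 FPKM in WT kidneys. The summed level of the 9 members ranged from 529 to 928 FPKM in β-catenin-/- kidneys and from 331 to 469 FPKM in WT kidneys, and from 477 to 772 FPKM in CD44-/- kidneys and from 676 to 1340 FPKM in WT kidneys. The part of these other cell types in the members' values was not tested.

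Genes of the segments that follow the thick ascending limb were called in both directions after UUO, where 10.6% of all genes were called in either direction. Of 8 distal convoluted tubule genes tested after UUO, 1 was called higher (Klhl3) and 1 lower (Trpm6), and the median was 0.22. Of 7 principal cell genes, 1 was called higher (Aqp2, the water channel that vasopressin brings to the membrane), with a median of 0.20. Of 7 intercalated cell genes, 1 was called lower (Atp6v0d2) and the median was -0.08. After UIRI, limma called 0 genes in these 3 lists, where 1 of 9, 2 of 7 and 1 of 7 genes passed 0.05 without adjustment, beside 27.1% of all genes. Among the remaining lists, 4 of 8 fibroblast and matrix genes (Col3a1, Fn1, Pdgfra and Pdgfrb), 2 of 7 genes of injured tubules (Havcr1 and Clu) and 1 of 5 endothelial genes (Pecam1) were called lower in β-catenin-/- kidneys after UUO, and Pdgfra was also called lower in CD44-/- kidneys after UIRI. In the list of injured tubules, 5 genes had a negative and 2 a positive log2 fold change after UUO, from -1.16 to 0.90. Of these, 1 gene passed 0.05 without adjustment in the higher direction. The genes named from these marker lists were named after their values were seen. Pvalb, a marker of the distal convoluted tubule, was at 0 to 1 reads in the β-catenin-/- libraries and at 0 in all WT libraries after UUO. No gene of any of these lists was at 0 in all 12 libraries.

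**Figure D3:**
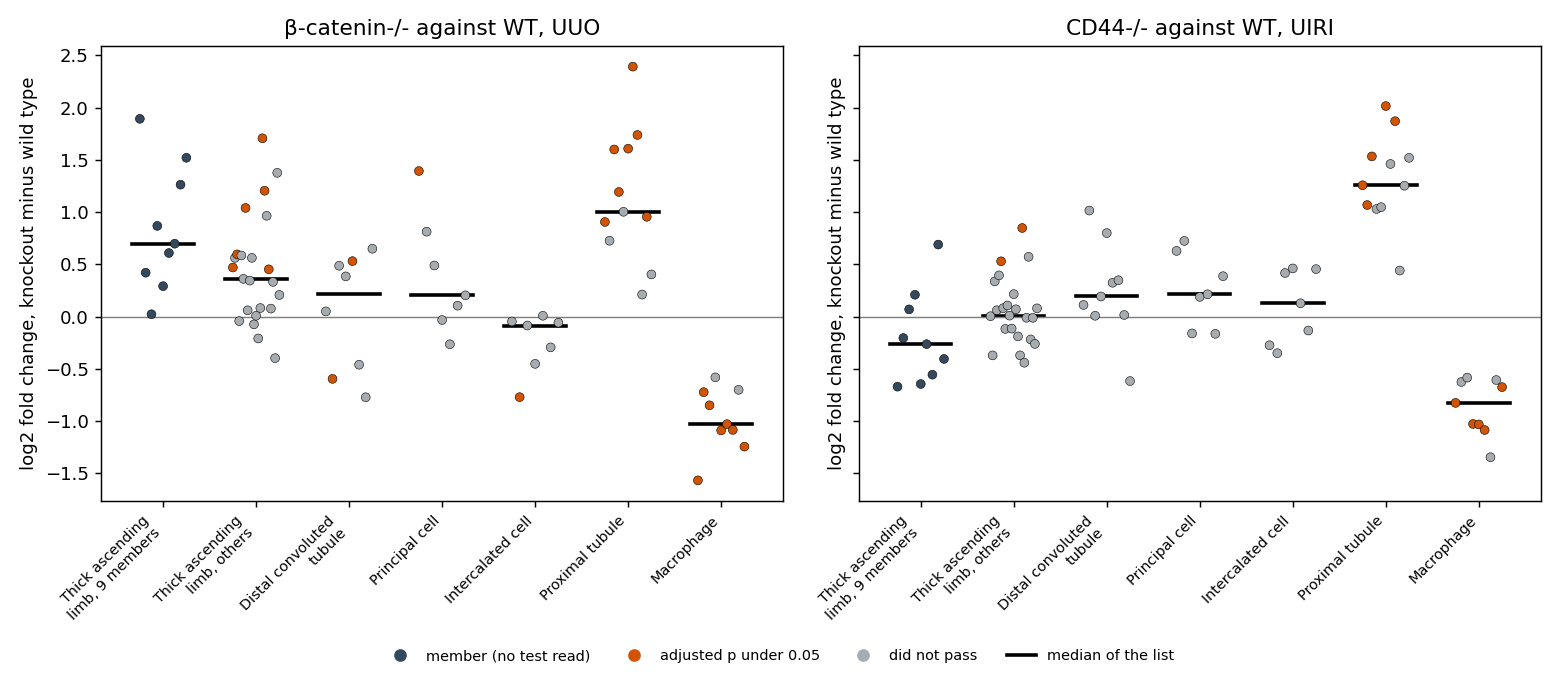
Log2 fold change of FPKM + 1, knockout minus wild type (y axis), of each tested gene of 7 lists (x axis), for β-catenin-/- against WT after UUO on the left and CD44-/- against WT after UIRI on the right. Orange points passed the limma test, grey points did not, dark points are the members, for which no test is read, and bars are medians. The members' median is 0.70 on the left and -0.26 on the right, while the proximal tubule medians are 1.00 and 1.26.

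The members also varied among libraries of 1 group. The second WT library after UIRI had the highest value of its group for 9 of 9 members, with a mean deviation of 0.53 on the log2 scale from the group mean, the largest of the 12 libraries. The third library of the same group had the lowest value for 6 members, with a mean deviation of -0.33. The third β-catenin-/- library was the highest of its group for 5 members, among them Slc12a1, Umod, Egf and Irx1. After UIRI, the first CD44-/- library was the lowest for 5 members and the highest for 3, Kcnj1, Bsnd and Egf.

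Over the 12 libraries, the deviations from group means of 28 of the 36 pairs of members had a positive Pearson r, with a median of 0.32 and a range of -0.42 to 0.92. Slc12a1 had r = 0.92 with Umod, 0.89 with Irx1 and 0.83 with Cldn16, Umod had 0.86 with Irx1, and Cldn16 had 0.81 with Cldn19, its partner in the pore. These points share libraries and depth scaling and are given with no test. Leaving out the second and the third WT libraries after UIRI, which lay farthest from 0, gave 0.89, 0.87 and 0.76 for Slc12a1 with Umod, Irx1 and Cldn16, 0.85 for Umod with Irx1, and 0.76 for Cldn16 with Cldn19. Over those 10 libraries 17 of the 36 pairs were positive, so that the positive sign of many pairs rested on these 2 libraries. The group means were not formed anew, and those of the WT group after UIRI still included the 2 libraries left out. Kcnj1 and Cldn10 had r of 0.27 and 0.32 with Slc12a1 over 12 libraries, and -0.10 and -0.12 over 10. Bsnd and Egf had r of -0.04 and 0.08 with the mean of the other 8 members.

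**Figure D4:**
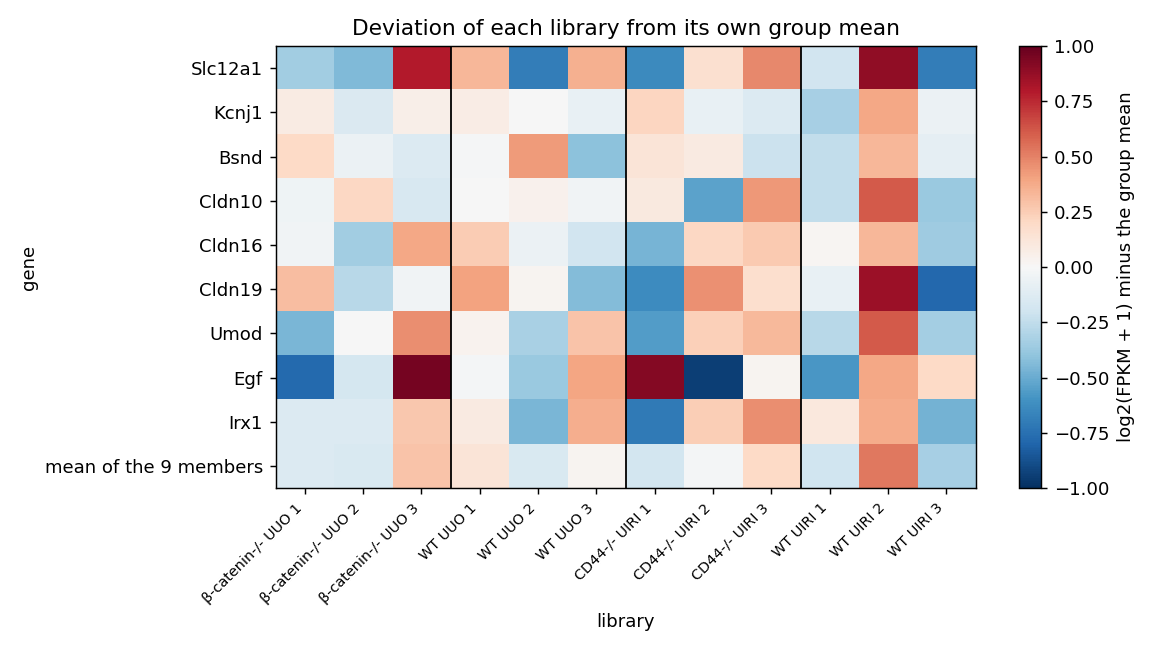
Deviation of each library from its own group mean on the scale of log2(FPKM + 1), as colour (red above, blue below, scale from -1 to 1), for the 9 genes and their mean (rows) in the 12 libraries (columns, black lines between groups). The column of the second WT library after UIRI is red in every row, and the rows of Slc12a1, Umod and Irx1 follow each other.

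Outside the list, the 5 protein-coding genes whose deviations were most like the mean deviation of the members, of 7694 genes that averaged 5 FPKM or more in each table, were Apela (r = 0.90), Esam (0.88), Mrps6 (0.86), Mad2l1bp (0.85) and Hbegf (0.84). Apela encodes a small peptide hormone, Esam an adhesion molecule of endothelial cells, Mrps6 a protein of the mitochondrial ribosome, Mad2l1bp a partner of a spindle checkpoint protein, and Hbegf a growth factor of the EGF family. Without the second and the third WT libraries after UIRI, r was 0.82, 0.89, 0.60, 0.59 and 0.82 for the 5 genes in that order, with the group means left unchanged. With FPKM rescaled to an equal total in every library, 3 of the 5 were again among the first 5. These genes were the highest of many ranked over 12 libraries, and the likeness is a description.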

How the data were processed

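Kidney RNA was extracted with Trizol and made into libraries with the NEBNext Ultra kit, and the submitters' processing notes name HISAT2 2.0.5, featureCounts 1.5.0-p3, DESeq2 1.20.0 and GRCm38 (mm10). The authors deposited FPKM per gene in 2 tables, 1 per knockout, each with its own 3 WT columns. A WT column was taken as UUO or UIRI from the knockout beside it. FPKM times gene length gave whole reads for 100% of values (within 0.01 read), and the depth term equalled the median-of-ratios size factor of the table. The tables were therefore normalised separately, and levels were tested within a table only. Columns of the authors' own comparisons were not used.

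The members and lists were chosen with earlier results of these data known. Each knockout was compared with its WT libraries on log2(FPKM + 1), a scale that understates the change of low genes, with R 4.3.3 and limma 3.58.1 (a moderated linear model whose prior variance follows a trend), over genes averaging at least 0.5 FPKM. Tests were two-sided, p-values were adjusted by Benjamini and Hochberg, and 0.05 was the threshold. The difference of effects was fitted over all 12 libraries. Named genes were the 9 members, the targeted genes, Cdh16, the 4 other genes of the segment with the smallest p in each table, and the 5 genes most like the members over the libraries. Some genes that this rule names or that passed the test are not reported here. The procedure was tested on simulated data. Alternatives were a pseudocount of 0.1, a filter at 1 FPKM or none, an equal FPKM total in every library (TPM), no trend, voom on the recovered reads, a block for the replicate number, and leaving out each library. Labels number the libraries of a group and do not say more of their origin, so p-values measure the spread between these libraries. No batch is given in the labels. Depth set the precision of low genes only, since every member had at least 80 reads. Python 3.11.15, NumPy 2.4.6, pandas 2.3.3 and Matplotlib 3.10.9 were used.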

Additional observations from a re-analysis of the deposited data

Results flagged for a closer look

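Ctnnb1 was lower in every β-catenin-/- library than in every WT library after UUO, and higher in every CD44-/- library than in every WT library after UIRI. It had 84.7, 71.4 and 71.7 FPKM in β-catenin-/- kidneys and 91.2, 86.7 and 98.5 FPKM in WT kidneys, and 87.5, 93.5 and 89.0 FPKM in CD44-/- kidneys and 81.8, 69.5 and 79.4 FPKM in WT kidneys. The difference between the effects was -0.50 on the log2 scale (SE 0.15) and did not pass the test over all genes (adjusted p = 0.210, limma). Of all genes tested, 15.9% had every β-catenin-/- library below every WT library after UUO. After UIRI, 19.1% had every CD44-/- library above every WT library, and the share of genes with both was not counted. β-catenin was the targeted gene in the UUO table only. No member of the thick ascending limb set had groups that lay apart in opposite directions in the 2 tables.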

How the results depend on the processing

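The members' median log2 fold change kept its sign in every alternative run. After UUO it was 0.70, ranged from 0.62 to 0.89 with 1 library left out, and was 0.48 with FPKM rescaled to TPM. After UIRI it was -0.26, and ranged from -0.64 to -0.010 with 1 library left out. The median difference between the effects was 0.87 and ranged from 0.44 to 1.11. Single members changed sign under some alternatives: Bsnd in 3 of 13 after UUO, 2 of 13 after UIRI and 4 of 19 for the difference, Cldn19 in 2 and Cldn10 in 1 of 13 after UIRI. Members called higher after UUO numbered 3, with 2 under no filter, 4 under voom on recovered reads, and 1 to 3 with 1 library left out. The members were chosen with this contrast known, so nothing is read from their counts. Counts over all genes moved more. After UUO, 1004 higher and 705 lower became 280 and 193 with no filter and 570 and 1178 with TPM, and with 1 library left out 130 to 1631 higher and 98 to 818 lower. After UIRI, 648 and 353 became 43 and 20 with no filter, 215 higher with TPM (470 lower), 1044 and 667 with voom, and with 1 library left out 0 to 1417 higher and 1 to 763 lower. For the difference, 1 higher and 0 lower became 2 and 1 with no filter, and 1 to 5 and 0 to 2 with 1 library left out. Of the 23 other genes of the segment, 6 called higher after UUO became 2 with no filter, 3 with TPM and 1 to 6 with 1 library left out, and 2 called higher after UIRI became 0 with no filter, 0 with TPM and 0 to 2 with 1 library left out. With no filter more genes were tested, and with a library left out fewer libraries entered the fit. The cause of the other changes was not tested.

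The libraries of the 2 groups share replicate numbers only. Deviations of same-numbered libraries had r of 0.08, 0.20 and 0.04 after UUO and of -0.14, -0.03 and -0.03 after UIRI. With the replicate number as a block, 992 genes were called higher and 675 lower after UUO, and 0 higher and 0 lower after UIRI, where 0 of the 23 other genes of the segment were then called.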

Other observations

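Ptgs2, the cyclooxygenase of macula densa cells, which lie at the end of the thick ascending limb, had 0.28, 0.21 and 0.38 FPKM in β-catenin-/- kidneys and 0.22, 0.59 and 9.07 FPKM in WT kidneys after UUO. It had 0.29, 0.30 and 0.31 FPKM in CD44-/- kidneys and 0.65, 0.38 and 0.25 FPKM in WT kidneys after UIRI. The third WT library after UUO thus stood apart from the other 11 libraries in this gene. The same library had 0.15 FPKM of Nos1 and 0.04 FPKM of Pappa2, the other 2 macula densa genes of the list, which reached at most 0.17 and 0.265 FPKM in any of the 12 libraries. Among the members it had the highest value of its group for 4 members and the lowest for 5. Ptgs2 was named after its values were seen.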
